A study of Homo sapiens with 6 samples.

Results

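Transcripts of 9 enzymes that make serine and pass its carbon to folate were followed by RNA sequencing in NOMO-1 cells, an established line from a human acute myeloid leukaemia. The enzymes were PHGDH, PSAT1, PSPH, SHMT2, MTHFD2, MTHFD1L, ALDH1L2, SHMT1 and MTHFD1, taken by name, and all 9 were found among the 15059 genes of the deposited table. The 6 libraries formed 3 groups of 2. Rescue cells (sgMETTL16+OE-METTL16) carried a guide RNA against METTL16 after being made to overexpress METTL16, knockout cells (sgMETTL16+EV) carried that guide after an empty vector, and control cells (sgNS+EV) carried a control guide after the empty vector. All cells were infected with lentivirus and kept in 2 µg/ml puromycin for 1 to 2 weeks. The labels name no clone, and they do not say whether the introduced METTL16 could itself be cut by the guide. Nor do they say whether the 2 libraries of a group came from separate cultures, so p-values describe the spread between these libraries, which may be technical.

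Serine is built from the glycolytic intermediate 3-phosphoglycerate in the cytosol by PHGDH, PSAT1 and PSPH in turn. Serine hydroxymethyltransferases then move the side-chain carbon of serine to tetrahydrofolate and leave glycine. This step and those after it exist in parallel in mitochondria (SHMT2, MTHFD2, MTHFD1L) and in the cytosol (SHMT1, MTHFD1). In proliferating cells the mitochondrial arm is known to oxidise serine carbon to formate, which the cytosolic arm uses to make purines, thymidylate and methionine. METTL16 methylates U6 small nuclear RNA and the messenger RNA of MAT2A, the S-adenosylmethionine synthetase.

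On GRCh38, with the gene models of GENCODE 29, the serine synthesis genes are PHGDH (ENSG00000092621) on chromosome 1 from 119648411 to 119744226 (plus strand), PSAT1 (ENSG00000135069) on chromosome 9 from 78297143 to 78330093 (plus strand) and PSPH (ENSG00000146733) on chromosome 7 from 56011051 to 56051604 (minus strand). The mitochondrial enzymes are encoded by SHMT2 (ENSG00000182199) on chromosome 12 from 57229327 to 57234935 (plus strand), MTHFD2 (ENSG00000065911) on chromosome 2 from 74198562 to 74217565 (plus strand), MTHFD1L (ENSG00000120254) on chromosome 6 from 150865549 to 151101887 (plus strand) and ALDH1L2 (ENSG00000136010) on chromosome 12 from 105019784 to 105084577 (minus strand). The cytosolic ones are encoded by SHMT1 (ENSG00000176974) on chromosome 17 from 18327860 to 18363563 (minus strand) and MTHFD1 (ENSG00000100714) on chromosome 14 from 64388031 to 64463457 (plus strand). All 9 are protein-coding nuclear genes, and they lie on 8 chromosomes.

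The values are abundances computed by the authors with RSEM and are called signal here. They were taken to be scaled for transcript length, so that signals of different genes may be set side by side. No header names their unit, so levels compared between genes rest on that reading. The signal of all genes summed to 597160 to 681928 per library, and read depth is not given in the sources used here. Knockout replicate 2 had the lowest sum. By the median gene control replicate 2 was lowest, at -0.12 log2 units from the mean of the libraries, and the medians of the others lay at 0.0041 to 0.059. METTL16 had a signal of 12.3 and 12.1 in rescue libraries, 6.05 and 5.83 in knockout libraries and 9.89 and 9.63 in control libraries, so the targeted transcript was reduced and not absent in knockout. Of 9 myeloid markers 7 were measured, and their summed signal was 275 to 281 in rescue, 362 to 366 in knockout and 220 to 233 in control libraries. In knockout against control 6 of these 7 rose (CD33, LYZ, CD68, CSF1R, SPI1 and CEBPA), where 26.2% of all tested genes rose, and the part of this change in the results below was not tested. Of 14 lymphoid, erythroid and epithelial markers 5 were measured, each with a signal under 2 in every library. In whole-culture RNA a lower level per cell and fewer cells with a given level cannot be told apart.

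**Figure D1:**
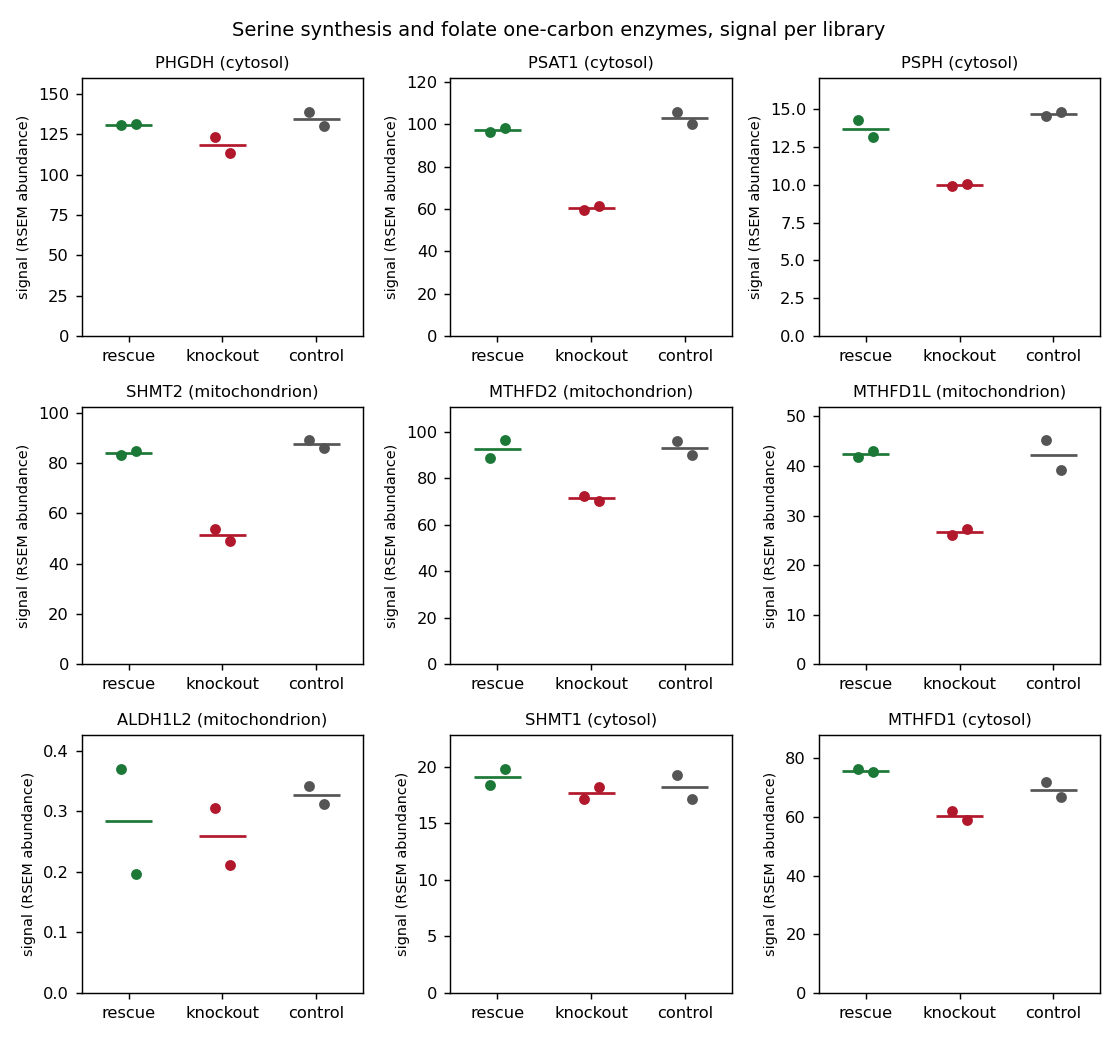
Signal (RSEM abundance, vertical axes from 0) of each of the 9 enzymes in rescue, knockout and control libraries; points are libraries and bars are group means of 2. Knockout and control libraries overlapped for SHMT1, and ALDH1L2, which was not tested, stayed under a signal of 0.4.

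Among the 3 enzymes of serine synthesis, all of which fell in knockout against control, PSAT1 had the largest fall and PHGDH the smallest. PSAT1, the transaminase of the second step, had a signal of 96.2 and 98.4 in rescue, 59.3 and 61.2 in knockout and 106 and 99.9 in control. Its knockout libraries lay below all 4 others, at 0.586 of the control mean. The change in knockout against control was -0.76 on the log2 scale (SE 0.056, adjusted p = 3.41e-07), where log2 changes are of the signal plus 1 and the p is limma's, adjusted over all genes tested. In rescue against knockout PSAT1 rose by 0.68 (SE 0.056, adjusted p = 1.61e-06). PSPH, the phosphatase that releases serine, had a signal of 14.3 and 13.1 in rescue, 9.93 and 10.1 in knockout and 14.6 and 14.8 in control. The knockout values again stood apart from the other 4. PSPH fell by 0.51 in knockout (SE 0.078, adjusted p = 0.000178), and in rescue it stood 0.42 above knockout (adjusted p = 0.00124).

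PHGDH, the dehydrogenase that commits carbon to the pathway, was the most abundant of the 9 transcripts in every library. Its signal was 131 and 131 in rescue, 123 and 113 in knockout and 139 and 129.98 in control. The knockout libraries were the lowest, but at 0.88 of the control mean the gap was small. It fell by 0.18 in knockout (SE 0.058, adjusted p = 0.0224). That call did not hold when control replicate 1 was left out (-0.14, adjusted p = 0.0975), when knockout replicate 2 was left out (-0.12, adjusted p = 0.254), or in a fit without a trend (adjusted p = 0.0918). In rescue against knockout PHGDH changed by 0.15 and did not pass the test (adjusted p = 0.069, 95% interval 0.022 to 0.27 before adjustment).

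The mitochondrial folate enzymes that could be tested, SHMT2, MTHFD2 and MTHFD1L, all fell in knockout against control and all rose in rescue against knockout. SHMT2, the mitochondrial serine hydroxymethyltransferase, had a signal of 83.3 and 84.7 in rescue, 53.8 and 49.1 in knockout and 88.9 and 86.1 in control. The groups did not overlap, and knockout stood at 0.588 of the control mean. In knockout SHMT2 fell by 0.76 log2 units (SE 0.06, adjusted p = 6.83e-07). It rose by 0.70 in rescue compared with knockout (adjusted p = 2.56e-06). MTHFD1L, the mitochondrial ligase of formate and tetrahydrofolate, which releases formate when run in reverse, had a signal of 41.9 and 43.1 in rescue, 26.2 and 27.3 in knockout and 45.1 and 39.2 in control. Rescue values fell between those of the control libraries, while knockout values lay below both groups. MTHFD1L fell by 0.64 in knockout (SE 0.072, adjusted p = 1.57e-05). Rescue exceeded knockout by 0.65 (adjusted p = 2.39e-05).

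MTHFD2, the mitochondrial methylene-tetrahydrofolate dehydrogenase and cyclohydrolase, had a signal of 88.8 and 96.2 in rescue, 72.4 and 70.2 in knockout and 96.1 and 90.1 in control. It fell to 0.766 of the control mean in knockout, a log2 change of -0.38 (SE 0.06, adjusted p = 0.000246). In rescue against knockout it rose by 0.37 (adjusted p = 0.000486). ALDH1L2, which oxidises mitochondrial 10-formyl-tetrahydrofolate, was barely measured, with a signal of 0.37 and 0.197 in rescue, 0.306 and 0.212 in knockout and 0.342 and 0.312 in control. No library reached the signal of 1 that the test asked of at least 2 libraries, so it stayed out of the counts. Fitted without that filter, it changed by -0.077 in knockout against control (adjusted p = 0.537). The gene C12orf45, on the opposite strand of the same locus, had a mean signal of 16.1, and whether counting used the strand is not given in the sources used here.

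Of the cytosolic pair, MTHFD1 fell in knockout against control and SHMT1 did not pass the test. SHMT1, the cytosolic serine hydroxymethyltransferase, had a signal of 18.4 and 19.8 in rescue, 17.2 and 18.3 in knockout and 19.3 and 17.2 in control. Knockout and control libraries overlapped. The log2 change was -0.038 in knockout against control (95% interval -0.21 to 0.13, adjusted p = 0.733) and 0.10 in rescue against knockout (95% interval -0.066 to 0.27, adjusted p = 0.343). SMCR8, which overlaps SHMT1 on the opposite strand, had a mean signal of 12.9. MTHFD1, the cytosolic enzyme that joins the dehydrogenase, cyclohydrolase and ligase activities in 1 protein, had a signal of 76.4 and 75.2 in rescue, 61.9 and 59.1 in knockout and 71.9 and 66.8 in control. It fell by 0.19 in knockout (SE 0.059, adjusted p = 0.0185). Rescue exceeded knockout by 0.32 (adjusted p = 0.00115). The fall did not pass the test when control replicate 1 (-0.14, adjusted p = 0.0511) or knockout replicate 2 (-0.16, adjusted p = 0.162) was left out, or in a fit without a trend (adjusted p = 0.0698).

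Of the 8 tested enzymes, 7 fell and 0 rose in knockout against control, where 13.5% of all 12734 tested genes fell and 26.2% rose. The median log2 change was -0.45 over the 8 enzymes and 0.067 over all genes. In rescue against knockout 6 of 8 rose and 0 fell, where 15.6% of all genes rose and 15.9% fell, with medians of 0.39 over the enzymes and -0.012 over all genes. Both comparisons use the knockout libraries, so their opposite signs are not independent of each other. Scaling each library by its median ratio changed the split over all genes, with 46.0% of the called genes higher in knockout, against 65.9% without it. Under that scaling 3435 of the 12734 genes fell in knockout, and 7 of the enzymes fell, as without it.

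**Figure D2:**
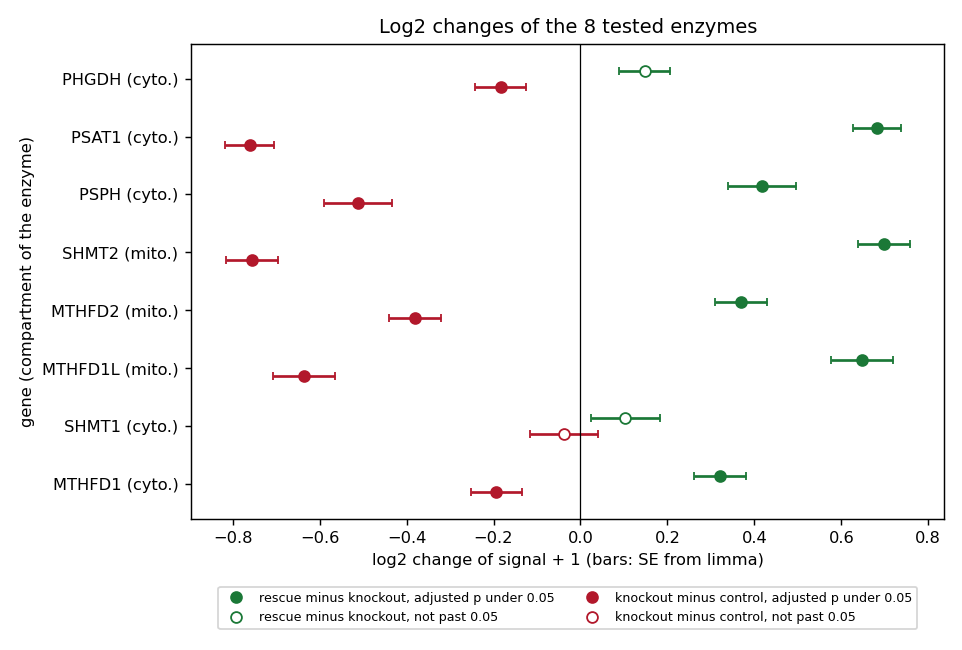
Log2 change of signal plus 1 (horizontal axis) with its SE from limma for the 8 tested enzymes, in rescue minus knockout (green) and knockout minus control (red); open points did not pass an adjusted p of 0.05. PSAT1, SHMT2 and MTHFD1L lie farthest from 0 in both comparisons and SHMT1 lies nearest.

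The mitochondrial isoenzymes were compared with their cytosolic counterparts as ratios of signals within a library, which do not depend on how libraries are scaled. SHMT2 over SHMT1 was 4.53 and 4.27 in rescue, 3.13 and 2.69 in knockout and 4.60 and 5.01 in control. Thus SHMT2 made up 81.9% and 81.0% of the summed SHMT signal in rescue, 75.8% and 72.9% in knockout and 82.2% and 83.4% in control. The log2 ratio differed by -0.73 in knockout against control (SE 0.13 from the libraries) and by 0.60 in rescue against knockout (SE 0.12), and the groups did not overlap in either comparison. MTHFD1L over MTHFD1 was 0.548 and 0.572 in rescue, 0.423 and 0.462 in knockout and 0.628 and 0.587 in control. That log2 ratio differed by -0.46 in knockout against control (SE 0.08) and by 0.34 in rescue against knockout (SE 0.071), again without overlap.

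MTHFD2 over MTHFD1 was 1.16 and 1.28 in rescue, 1.17 and 1.19 in knockout and 1.34 and 1.35 in control. Knockout lay below control without overlap (log2 difference -0.19, SE 0.013), while rescue and knockout libraries overlapped (0.049, SE 0.069). Both enzymes had risen in rescue against knockout, MTHFD2 by 0.37 and MTHFD1 by 0.32. An exact two-sided permutation test of 2 libraries against 2 cannot give a p below 0.333, and it gave 0.333 for each of these differences except MTHFD2 over MTHFD1 in rescue against knockout, at 1. The ratios are therefore given as a description. In all 3 ratios both rescue libraries also lay below both control libraries. The log2 differences were -0.13, -0.12 and -0.14 for the SHMT, MTHFD1L and MTHFD2 ratios. How many other gene pairs show this order was not counted. The MTHFD1L and MTHFD2 ratios share the denominator MTHFD1, which was 0.13 log2 units higher in rescue than in control. MTHFD1L itself differed by 0.013 and MTHFD2 by -0.01. No ratio was formed for ALDH1L2, whose cytosolic counterpart ALDH1L1 was not analysed here.

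**Figure D3:**
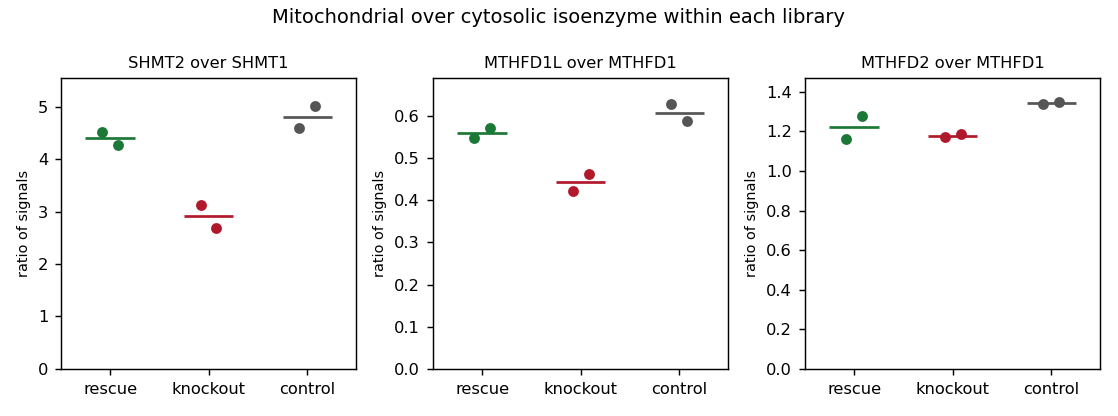
Ratio of the signal of the mitochondrial to the cytosolic enzyme within each library (vertical axes from 0) for SHMT2 over SHMT1, MTHFD1L over MTHFD1 and MTHFD2 over MTHFD1; points are libraries and bars are group means of 2. The first ratio was 2.69 to 3.13 in knockout and 4.60 to 5.01 in control, and rescue and knockout points overlapped only in the last panel.

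The order of the levels also differed between groups. In both control libraries it ran, from high to low, PHGDH, PSAT1, MTHFD2, SHMT2, MTHFD1, MTHFD1L, SHMT1, PSPH and ALDH1L2, and the ranges of neighbouring genes did not overlap. In the knockout libraries PSAT1 stood below MTHFD2, and at 59.3 to 61.2 it overlapped MTHFD1 at 59.1 to 61.9. SHMT2 stood below MTHFD1 in both of them. In the rescue libraries the order was that of the control libraries, with the highest MTHFD2 value and the lowest PSAT1 value both at 96.2. Whether any such difference between genes exceeded the spread was not tested.

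Between rescue and control 0 of the 8 tested enzymes rose or fell, where 0.228% of all tested genes rose and 0.055% fell. On the unscaled signal the widest difference among the enzymes was in MTHFD1 (log2 change 0.13, 95% interval 0.00075 to 0.25 before adjustment, adjusted p = 0.429). MTHFD1 was higher in both rescue libraries than in both control libraries. At the other end PSPH differed by -0.095 (95% interval -0.26 to 0.072, adjusted p = 0.678) and PSAT1 by -0.078 (95% interval -0.20 to 0.041, adjusted p = 0.641). Both rescue libraries lay below both control libraries for PSPH, PSAT1 and SHMT2. With median-ratio scaling MTHFD1 differed by 0.061, PSPH by -0.16, PSAT1 by -0.15 and SHMT2 by -0.12. Which enzyme differed most thus depended on the scaling of the libraries. Relative to the gap between control and knockout means, rescue closed 87.0% for PSAT1, 78.9% for PSPH, 90.3% for SHMT2, 97.1% for MTHFD2, 102% for MTHFD1L, 78.8% for PHGDH and 173% for MTHFD1, whose rescue libraries lay above control. With median-ratio scaling MTHFD1L differed by -0.053 on the log2 scale between rescue and control, against 0.013 without it. The shares above are of the unscaled signal, and no spread was computed for these shares. Those of PHGDH and MTHFD1 rest on small gaps, which did not pass the test in a fit without a trend. The PHGDH rise in rescue against knockout did not pass limma's test either (adjusted p = 0.069).

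Promoters of the enzymes were read from RefSeq (GRCh38.p14, 250 bases before to 50 after a start), where 6 of the 9 had an entry, all but SHMT2, PSPH and ALDH1L2. These were searched on both strands for TGATGNAA, the core of the element bound by ATF4 with C/EBP proteins, and for the E-box CACGTG, since ATF4 and MYC are known regulators of this pathway. TGATGNAA occurred in 3.62% and CACGTG in 7.26% of all 35116 promoter entries, or in at least 1 entry of 4.46% and 8.77% of the 27305 genes. Both occurred in MTHFD1L, at -129 and -154 from the start of 1 of its entries (chr6:150866236-150866535, plus strand). CACGTG also occurred in MTHFD1, the cytosolic counterpart of MTHFD1L, at -15 (chr14:64388103-64388402, plus strand). Neither occurred in the windows of PSAT1 (chr9:78296875-78297174, plus strand), PHGDH, MTHFD2 or SHMT1. MTHFD1L had 4 entries, of which 3 overlapping ones held both motifs. From the start of the entry at chr6:150866083-150866382 TGATGNAA lay at 24 and CACGTG at -1. From that of the entry at chr6:150866197-150866496 they lay at -90 and -115. The sequences of the isoenzyme pair are shown because MTHFD1L fell by 0.64 and MTHFD1 by 0.19 in knockout, and PSAT1 because it had, with SHMT2, a log2 change of -0.76; capitals mark TGATGNAA and CACGTG.
MTHFD1L: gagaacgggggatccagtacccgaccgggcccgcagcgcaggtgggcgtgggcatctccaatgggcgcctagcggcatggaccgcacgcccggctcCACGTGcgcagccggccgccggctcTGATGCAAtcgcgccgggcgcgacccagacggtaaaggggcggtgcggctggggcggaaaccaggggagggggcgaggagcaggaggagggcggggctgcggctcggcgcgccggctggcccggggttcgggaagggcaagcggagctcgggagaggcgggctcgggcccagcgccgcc
MTHFD1: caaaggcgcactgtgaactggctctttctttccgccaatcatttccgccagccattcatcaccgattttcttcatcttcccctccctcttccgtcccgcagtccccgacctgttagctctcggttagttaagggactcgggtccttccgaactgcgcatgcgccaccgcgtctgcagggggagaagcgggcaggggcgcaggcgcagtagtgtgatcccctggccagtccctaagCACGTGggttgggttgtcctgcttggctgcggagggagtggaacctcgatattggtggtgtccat
PSAT1: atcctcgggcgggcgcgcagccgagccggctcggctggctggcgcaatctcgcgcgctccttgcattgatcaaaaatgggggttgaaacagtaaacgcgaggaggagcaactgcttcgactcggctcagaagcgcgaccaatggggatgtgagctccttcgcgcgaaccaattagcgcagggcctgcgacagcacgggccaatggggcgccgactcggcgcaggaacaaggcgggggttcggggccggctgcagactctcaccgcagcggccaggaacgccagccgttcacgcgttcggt
A match describes these letters only and shows no binding.

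ATF4 itself, a transcription factor known to be controlled mainly through its translation, had a signal of 140.1 and 143 in rescue, 129 and 122 in knockout and 142 and 134 in control. In knockout it changed by -0.13 on the log2 scale, which did not pass the test (adjusted p = 0.067). Relative to knockout it rose by 0.17 in rescue (adjusted p = 0.0303).

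Other genes of serine, glycine and folate metabolism were taken from a list of 40, of which 32 were measured and 29 tested. Of these, 10 fell and 0 rose in knockout against control, where 13.5% of all genes fell and 26.2% rose. In rescue against knockout 13 rose and 1 fell, where 15.6% of all genes rose and 15.9% fell. The median log2 changes were -0.12 and 0.21, and over all genes 0.067 and -0.012. With median-ratio scaling 16 fell in knockout, where 3435 of all 12734 tested genes fell, against 1723 without that scaling. Most of the called genes were enzymes of purine synthesis, 7 of 8 of which fell in knockout and all 8 of which rose in rescue against knockout. Purine synthesis takes 10-formyl-tetrahydrofolate at 2 steps, catalysed by GART and ATIC. ATIC had a signal of 62.2 and 62.6 in rescue, 39.2 and 40.3 in knockout and 64.7 and 63.8 in control, a log2 change of -0.68 in knockout (adjusted p = 1.10e-06). PAICS, an enzyme between those steps, had a signal of 100.5 and 105 in rescue, 59.4 and 59.1 in knockout and 98.1 and 91.7 in control, a change of -0.67 (adjusted p = 1.38e-06). In both genes the knockout libraries lay far below the other 4. PPAT, the committed step, fell by 0.44, GART by 0.32, PFAS by 0.25 and GMPS, which makes GMP, by 0.23.

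Outside purine synthesis 3 of 21 tested genes (14.3%) fell in knockout, near the 13.5% of all genes. Of the same 21, 5 (23.8%) rose in rescue against knockout, where 15.6% of all genes rose. In that comparison 1 of them (4.76%) fell, where 15.9% of all genes fell. GCSH, the lipoyl carrier protein of mitochondrial glycine cleavage, had a signal of 13.6 and 15.3 in rescue, 9.18 and 9.91 in knockout and 14.8 and 12.5 in control. It fell by 0.47 in knockout (adjusted p = 0.00132), and rescue exceeded knockout by 0.55 (adjusted p = 0.000647). SFXN1, the carrier that brings serine into mitochondria, fell by 0.20 in knockout (adjusted p = 0.0225), and rescue exceeded knockout by 0.32 (adjusted p = 0.00217). For TYMS, thymidylate synthase, knockout exceeded control by 0.01 log2 units, which did not pass the test (adjusted p = 0.902). Methionine remethylation had 0 of 2 genes called in knockout, and folate interconversion 0 of 3. Each class had 1 gene that rose in rescue against knockout, MTR (methionine synthase) by 0.21 (adjusted p = 0.0349) and MTHFS by 0.46 (adjusted p = 0.0445), though the MTHFS libraries of these groups overlapped. The 1 gene that fell in rescue against knockout was SDS, serine dehydratase, at -0.33 (adjusted p = 0.0126). TYMS, MTR, MTHFS and SDS were named after their values were seen.

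**Figure D4:**
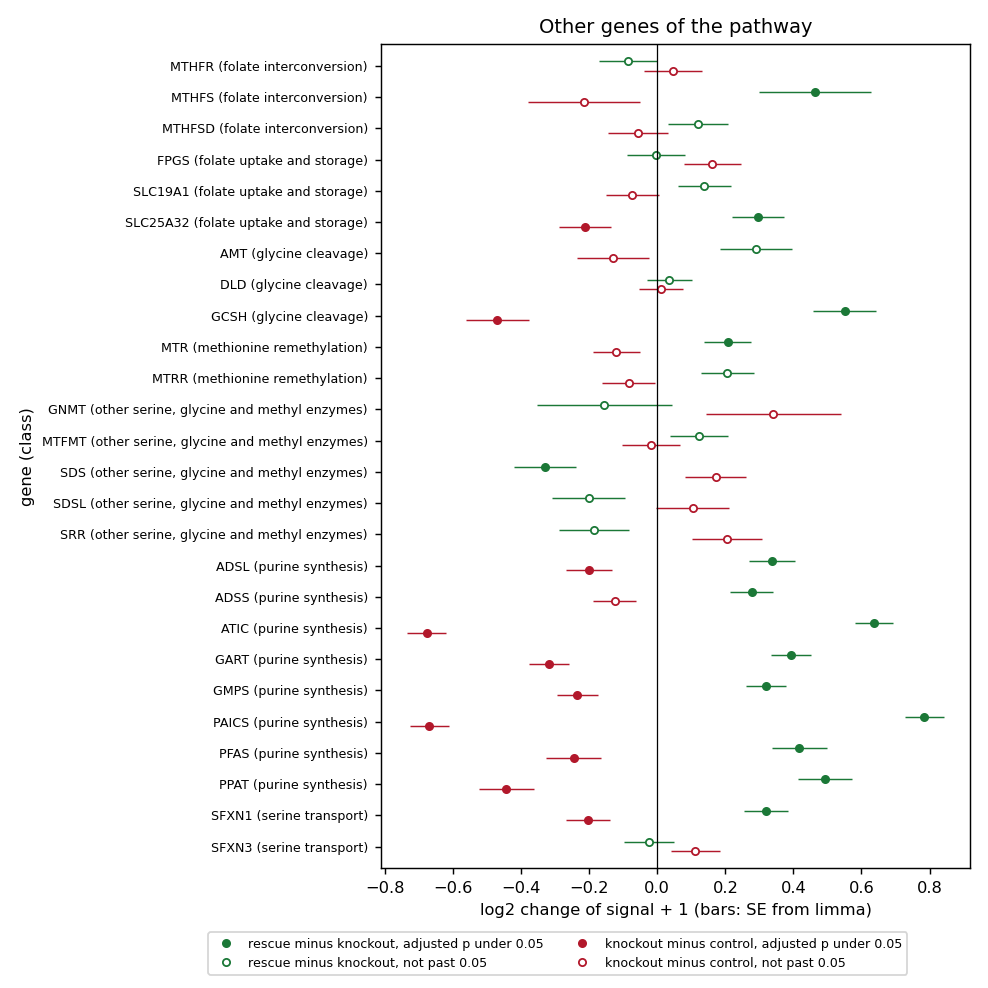
Log2 change of signal plus 1 (horizontal axis) with its SE from limma for 26 of the 29 other tested genes of the pathway (thymidylate synthesis is left out), grouped by class, in rescue minus knockout (green) and knockout minus control (red); open points did not pass an adjusted p of 0.05. The purine synthesis genes hold 7 of the 10 falls in knockout.

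The genes whose profiles over the 6 libraries came closest to those of PSAT1 and SHMT2 were found by the root mean square difference of log2 values centred on each gene's mean. For PSAT1 these were IMPDH2 (0.031), the enzyme that commits IMP to guanine nucleotides, KAT5 (0.032), a histone acetyltransferase, and HIST1H2BL (0.033), a histone H2B gene. IMPDH2 had a signal of 152 and 159 in rescue, 97.0 and 94.7 in knockout and 165 and 154 in control. For SHMT2 they were RPL13A (0.027), a ribosomal protein gene, its pseudogene RPL13AP5 (0.028) and FDPS (0.031), an enzyme of isoprenoid synthesis. RPL13A and RPL13AP5 can share reads, so their separate values are uncertain. FDPS had a signal of 129 and 125 in rescue, 80.1 and 74.9 in knockout and 137 and 126 in control.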

How the data were processed

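RNA from 6 NOMO-1 libraries was measured, and per the labels' protocols ribosomal RNA was depleted and stranded TruSeq libraries were made. STAR, RSEM and GRCh38 are named in the submitters' processing notes, without their settings. The deposited table gives 1 signal per gene and library, an RSEM abundance that no header identifies as TPM or FPKM. Depth and versions are not given in the sources used here, so no counting interval is given. Groups came from the labels, and the table had 0 unmatched columns. A gene was tested if 2 or more libraries reached a signal of 1 (12734 genes, with 2325 left out). Values were tested as log2(signal + 1) with limma 3.58.1 (R 4.3.3, trend, all 6 libraries, 3 residual and 11.0 prior degrees of freedom), two-sided, adjusted by Benjamini-Hochberg over the 12734 genes, and called below 0.05. Adding 1 shrinks changes of low genes. Ratios used no pseudocount and an exact permutation test (scipy 1.17.1). Alternatives were a pseudocount of 0.1, no filter, a mean of at least 5, median-ratio scaling, quantile normalization, no trend, only the groups compared, a replicate block and leaving out each library. Locations and overlaps used GENCODE 29. Of 14 annotated pseudogenes of the enzymes, 0 were among the measured genes. Part of the thymidylate synthesis list is counted but not reported here by gene. The enzymes, lists and tests were chosen with earlier results of these data known. Named were all 9 enzymes, up to 8 other pathway genes with the smallest p, METTL16, ATF4 and the 3 closest profiles of PSAT1 and SHMT2, while TYMS, MTR, MTHFS, SDS, the overlapping genes C12orf45 and SMCR8 and the letters searched in transcripts were later choices.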

Additional observations from a re-analysis of the deposited data

How the results depend on the processing

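The count of enzymes called was 7 in knockout against control, 6 in rescue against knockout and 0 in rescue against control. Over the 14 alternatives these counts ran from 5 to 7, from 6 to 7 and stayed at 0. Leaving out 1 library gave 5 to 7, 6 to 7 and 0. PSAT1, PSPH, SHMT2, MTHFD2 and MTHFD1L kept their direction and call in both comparisons with knockout under all 14. PHGDH in rescue against knockout was called under 7 of the 14 and not under the others. The 10 other pathway genes called in knockout, all falls, became 16 falls with median-ratio scaling, where 3435 of all 12734 tested genes fell. With only the 2 groups compared they were 7 falls and 1 rise, where 1604 of all genes fell and 3189 rose. The 14 called in rescue against knockout (13 rises and 1 fall) became 18 rises and 1 fall with median-ratio scaling. Under that scaling 3104 of all genes rose and 2529 fell in this comparison. The MTHFD2 over MTHFD1 log2 ratio in knockout against control was -0.21 after quantile normalization, against -0.19, and without 1 library -0.20 to -0.18. In rescue against knockout that ratio ran from -0.02 to 0.12 without 1 library. The SHMT2 over SHMT1 ratio ran from -0.84 to -0.62 and from 0.49 to 0.71, and the MTHFD1L over MTHFD1 ratio from -0.52 to -0.39 and from 0.28 to 0.41. With a replicate block 7 enzymes were called in knockout, 7 in rescue against knockout and 0 in rescue against control. Of the other pathway genes 10 then fell and 1 rose in knockout, where 1875 of all 12734 genes fell and 3600 rose. In rescue against knockout 15 of them rose and 1 fell, where 2214 of all genes rose and 2263 fell. Deviations of same-numbered libraries correlated across genes at -0.048 to 0.10 between groups. With 1 deviation per gene in each group, this cannot show whether same-numbered libraries shared a culture or day. Read depth is unknown, so no counting error can be given for ALDH1L2, the lowest of the enzymes.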

Other observations

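METTL16 is known to bind and methylate hairpins of MAT2A that carry the letters TACAGAGAA or TACAGAAAA. After the values above were seen, these letters were looked for in the longest coding transcript of each enzyme in GENCODE 29. The transcript of MAT2A held 6 matches, all after its stop codon. Among the 9 enzymes 1 match was found, in PSAT1 at position 233 of 2188, within the coding sequence that begins at 69, while 0 were found in the other 8. Among tested genes with a coding transcript within 20% of each enzyme's length the share with a match was 3.65% to 18.4%, and the 9 shares add up to 0.734 genes, so that 1 enzyme with a match is near the background. MAT2A had a signal of 134 and 138 in rescue, 77.6 and 78.1 in knockout and 140.2 and 132 in control. The PSAT1 site and the first MAT2A site are shown with 10 bases on either side, with the match in capitals. No binding was measured, and other transcripts of these genes were not searched.
PSAT1: ttattaacaaTACAGAGAAtcttgtgcgg
MAT2A: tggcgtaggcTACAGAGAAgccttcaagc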
